A study of Saccharomyces cerevisiae with 7 samples.

Results

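The machinery that makes ribosomal and transfer RNA was followed through 10 of its genes in a meiotic time course of budding yeast labelled as lacking the cyclins Clb5 and Clb6. They were taken by name from the 6141 open reading frames on the array, so that their values played no part in the rule. The set holds 6 subunits of RNA polymerase I (RPA190, RPA135, RPA49, RPA43, RPA34 and RPA12), its initiation factor RRN3, and 3 subunits of RNA polymerase III (RPO31, RET1 and RPC82). All 10 are on the array. Of 70 possible values 67 were present, since RPA12 had none at 1 h, at 5 h or on the last array.

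All 7 arrays came from 1 genotype, labelled Clb5Delta-Clb6Delta, a double deletion of the S-phase B-type cyclins. Cells were sampled 1, 2, 3, 4, 5, 6 and 8 h into meiosis, with 1 array and no replicate at each time, and a wild-type course was not analysed here. A value is the log2 ratio of the messenger at the sampled hour over the same messenger at 0 h, both read against a mix of mRNA from all time points. The number of arrays limits the precision, and an error in the shared 0 h measurement would shift a gene alike at all times. The title of the last array says 8 h while its source name says 6 h. The strain background and the stretch of each gene covered by its probe are unknown here.

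RNA polymerase I transcribes the large ribosomal RNA precursor in the nucleolus, and RNA polymerase III transcribes transfer RNAs, the smallest ribosomal RNA and other short RNAs. Both enzymes have a catalytic core built like that of RNA polymerase II, share several subunits with it or with each other, and carry subunits of their own. Their output is known to follow nutrient supply, with the Rrn3 factor linking polymerase I to its promoter and the Maf1 protein restraining polymerase III. Yeast enters meiosis when starved of nitrogen and of a fermentable carbon source, a state in which ribosome production is known to be low. Poly(A) RNA was measured, so the values concern the messengers of the enzyme subunits and not the ribosomal and transfer RNAs that the enzymes make. In such bulk samples fewer cells with a messenger and less of it per cell cannot be told apart.

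The deleted genes were read first: CLB5 lay between -0.51 and 1.40 and CLB6 between -0.53 and 1.27. CLB6 rose (slope 0.28 ± 0.06 per h, limma adjusted p = 0.00526), under all 15 alternatives of the line too, and CLB5 changed by the spline (limma adjusted p = 0.0496), which 5 of 14 alternatives kept. The slope of CLB5 missed the threshold (limma adjusted p = 0.714). Among all genes 18% rose along the line and 61% changed by the spline. Both genes are labelled as deleted, yet both had a value on all 7 arrays. The part of each gene that its probe covers is unknown here, and the source of these values was not tested. The genotype is therefore given as labelled. Array medians lay between -0.01 and 0.09, and the SD over genes went from 0.96 at 1 h to 1.65 on the last array.

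The first comparison sets each member against its own level at 0 h. The polymerase I subunits followed separate courses: RPA135, RPA34 and RPA12 were low wherever they were measured, RPA190 was above 0 h at first and below it later, and RPA43 stayed near its 0 h level. Of the polymerase III subunits RPO31 was below 0 throughout without reaching 2-fold, while RET1 and RPC82 lay within 0.59 of 0 up to 6 h and stood on opposite sides of it on the last array. Over the 67 member values, 50 were below 0 and 20 were at least 2-fold (1 log2 unit) lower than at 0 h. Of all values on the arrays 48.5% were below 0 and 15.9% at least 2-fold lower. Of those 20 values, 19 belonged to the polymerase I subunits and 1 to polymerase III. In time order 2, 3, 3, 2, 3, 4 and 3 members were at least 2-fold lower, against 12.1%, 12.3%, 13%, 15.7%, 18.2%, 19.3% and 20.5% of all genes. A single member value was at least 2-fold higher, that of RPC82 on the last array, where 1278 of 5625 genes were that high. Over all 7 arrays 16.8% of all values were. With 1 array per time point these counts have no test.

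**Figure D1:**
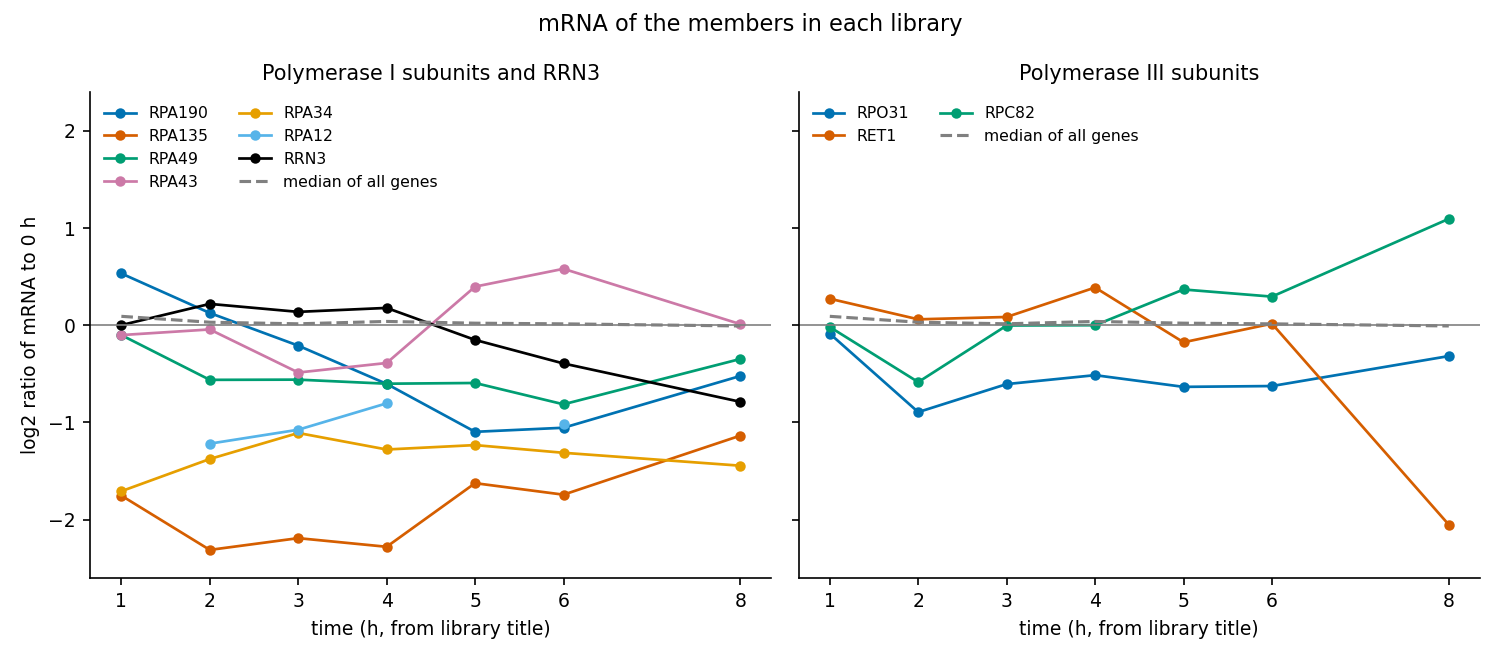
Log2 ratio of mRNA to 0 h (vertical axis) against the time in hours from the library title (horizontal axis), 1 point per array and no error bars because there is 1 array per time point. The left panel has the 6 polymerase I subunits and RRN3, the right panel the 3 polymerase III subunits, and the dashed line is the median of all genes; lines break where a value is missing. RPA135 is the lowest curve from 1 h to 6 h, and RET1 stands at -2.05 on the last array.

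RPA135 (YPR010C) codes for the second largest subunit of polymerase I, which forms the catalytic centre together with the largest one. In time order its log2 ratios were -1.75, -2.31, -2.19, -2.28, -1.63, -1.74 and -1.14. It was thus at least 2-fold below 0 h on all 7 arrays, as 6.17% of the genes measured throughout were, with 20.1% of its 0 h level left at 2 h and 45.5% on the last array. Among all genes of an array it ranked between the 2.6th and the 17.6th percentile. By a natural spline of time fitted over all genes it changed (limma adjusted p = 0.0231), while its slope of 0.12 ± 0.05 log2 units per h (SE) missed the threshold (limma adjusted p = 0.115). The line passed without the 1 h array (0.20 per h, limma adjusted p = 0.0108), and without the last its slope was 0.06 (limma adjusted p = 0.566). Most of its distance from 0 h was present at 1 h, and the value nearest to 0 was the last. The spline call was lost without the last array (limma adjusted p = 0.140), without the 3 h or the 4 h array (0.0567 and 0.0543) and with the last array set to 6 h (0.0596).

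RPA190 (YOR341W) codes for the largest subunit of polymerase I, which carries the active site. In time order it stood at 0.53, 0.13, -0.21, -0.60, -1.10, -1.06 and -0.52. Up to 5 h the ratio was lower on each array than on the one before, from 145% of the 0 h level to 46.7%. By the spline RPA190 changed (limma adjusted p = 0.00144), and it did so under each of the 14 alternatives of that fit. Its slope was -0.19 ± 0.06 per h (limma adjusted p = 0.0512), and 4 of 15 alternatives of the line passed. Without the 1 h array the slope was -0.13 per h (limma adjusted p = 0.175). Leaving out the last array made the slope -0.34 per h (limma adjusted p = 0.00183), and setting that array to 6 h made it -0.28 (limma adjusted p = 0.0120). RPA190 was above RPA135 on all 7 arrays, by 2.29 log2 units at 1 h and by 0.53 at 5 h, although both belong to the core of the same enzyme.

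RPA34 (YJL148W) and RPA49 (YNL248C) form a dimer of polymerase I that resembles the factor TFIIF of polymerase II. RPA34 read -1.71, -1.38, -1.11, -1.28, -1.23, -1.31 and -1.45 in time order. It lay at least 2-fold below 0 h on all 7 arrays, in a narrow band of 0.60 log2 units. RPA49 read -0.10, -0.56, -0.56, -0.60, -0.59, -0.81 and -0.35. It was below 0 on all 7 arrays, as 24.2% of the genes measured throughout were, but reached 2-fold on none. Neither partner passed a test of time: the slopes were 0.02 ± 0.04 per h for RPA34 (limma adjusted p = 0.738) and -0.03 ± 0.04 for RPA49 (limma adjusted p = 0.606), with spline adjusted p of 0.183 and 0.129 in limma. With arrays brought to 1 spread RPA34 passed both, with a slope of 0.15 and limma adjusted p of 0.0484 and 0.00753, and when quantile normalized it passed the spline (limma adjusted p = 0.0199).

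RPA12 (YJR063W) is the small subunit that gives polymerase I its RNA cleavage activity. It read -1.22 at 2 h, -1.08 at 3 h, -0.80 at 4 h and -1.01 at 6 h, the 4 arrays with a value. It was below 0 on each, and at least 2-fold lower on 3 of the 4. With 3 values missing it was not tested.

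RPA43 (YOR340C) is the larger stalk subunit, the one that Rrn3 is known to contact. In time order it stood at -0.10, -0.04, -0.49, -0.39, 0.40, 0.58 and 0.01. It was below 0 on the first 4 arrays and above it on the last 3. Its slope of 0.07 ± 0.06 per h and its spline missed the threshold (limma adjusted p = 0.377 and 0.510), although the spline passed without the last array (limma adjusted p = 0.0222).

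RRN3 (YKL125W), which makes polymerase I competent to start, was near its 0 h level for the first hours. Its ratios were 0.00, 0.22, 0.14, 0.18, -0.15, -0.39 and -0.79, so that the 3 latest arrays were below 0 and the earlier ones were not. RRN3 fell by the line, at -0.13 ± 0.04 per h (limma adjusted p = 0.0424), and changed by the spline (limma adjusted p = 0.00776). Of 15 alternatives of the line 3 kept the call; leaving out the last array gave -0.09 per h (limma adjusted p = 0.253), and it was lost on leaving out any other array but that of 1 h. The spline kept its call under 13 of 14, the exception being the fit without the last array (limma adjusted p = 0.0608).

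RPO31 (YOR116C) codes for the largest, catalytic subunit of polymerase III. Its ratios in time order were -0.09, -0.89, -0.61, -0.51, -0.63, -0.63 and -0.32. It was below 0 on all 7 arrays and reached 2-fold on none. No trend was detected, its slope being 0.00 ± 0.05 per h (limma adjusted p = 0.994) and a spline adjusted p of 0.361 in limma.

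RET1 (YOR207C) codes for the second largest subunit of polymerase III. It read 0.27, 0.06, 0.08, 0.39, -0.18 and 0.02 from 1 h to 6 h and -2.05 on the last array. The first 6 values lay within 0.39 of 0, and the last one was 24.1% of the 0 h level. The step from 6 h to the last array was -2.07, and 12 of the 5569 genes measured on both had a lower one. RET1 fell along the line (slope -0.26 ± 0.08 per h, limma adjusted p = 0.0381) and changed by the spline (limma adjusted p = 0.00176). Both calls rest on that 1 value: without it the slope was -0.05 per h (limma adjusted p = 0.538) and the spline adjusted p was 0.650 in limma. The call of the line was also lost without the 2 h, 3 h or 5 h array, with adjusted p from 0.0508 to 0.0644 in limma.

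RPC82 (YPR190C) belongs to the part of polymerase III that resembles the factor TFIIE and helps open the promoter. In time order it read -0.02, -0.59, 0.00, 0.00, 0.37, 0.29 and 1.09, with its 3 highest values on the 3 latest arrays. RPC82 rose by the line, at 0.18 ± 0.05 per h (limma adjusted p = 0.0202), and changed by the spline (limma adjusted p = 0.00866). Leaving out the last array gave a slope of 0.13 (limma adjusted p = 0.162) and a spline adjusted p of 0.164 in limma, and leaving out the 2 h array a slope of 0.15 (limma adjusted p = 0.0640). It held 214% of its 0 h level on the array where RET1 held 24.1%.

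The second comparison asks how many members followed a trend over the 7 arrays. Of the 9 members measured on all of them, 1 rose (RPC82) and 2 fell (RRN3 and RET1) along the line, against 18% of 5349 genes that rose and 15.1% that fell. By the spline 5 of the 9 changed (RPA190, RPA135, RRN3, RET1 and RPC82), against 61% of all genes, so the members' shares are near those of all genes. Each p-value here rests on how far 7 samples of 1 course lie from a fitted curve, and the spread between cultures is not in it. Without the last array, and likewise with its time set to 6 h, 1 member fell, RPA190, and none rose; without the 2 h array none passed in either direction.

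**Figure D2:**
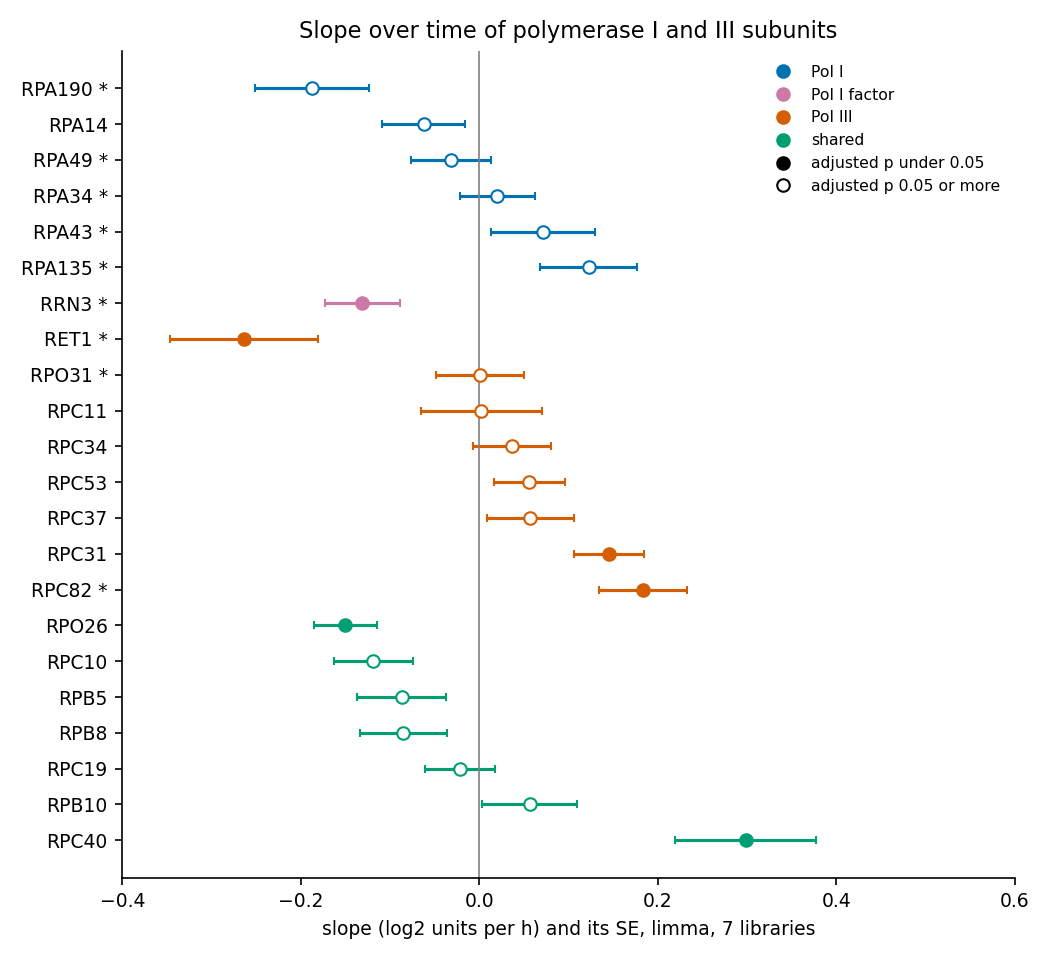
Slope of the log2 ratio over time in log2 units per hour (horizontal axis) with its SE from limma over 7 arrays, for each polymerase I, polymerase III and shared subunit measured on all arrays and for RRN3; asterisks mark the 9 members tested. Filled points have an adjusted p under 0.05 over all 5349 genes: RRN3, RET1 and RPO26 lie left of 0 and RPC31, RPC82 and RPC40 right of it.

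The median of the 6 polymerase I subunits was below that of the 3 polymerase III subunits on all 7 arrays. In time order the difference was -0.08, -0.31, -0.81, -0.70, -0.92, -1.05 and -0.20. Its mean was -0.58 ± 0.38 (SD over 7 arrays), and -0.77 ± 0.28 with every subunit specific to either enzyme. RPA12 is absent from 3 of these arrays, and the difference between these small groups was not tested. Within polymerase I the lowest and the highest member were 2.29 log2 units apart at 1 h and 2.32 at 6 h. Such a span between single genes is not the same measure as a difference of medians.

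The other subunits of both enzymes were read from a fixed list. RPA14, the smaller stalk subunit of polymerase I, was below 0 on all 7 arrays and 2-fold lower or more on 5, between -1.51 and -0.87. Of 10 polymerase III subunits 8 were tested; RPC25 had 3 values and RPC17 none. RPC31, a partner of RPC82 in the same subcomplex, rose from -0.24 at 1 h to 0.79 on the last array (slope 0.14 ± 0.04 per h, limma adjusted p = 0.0216, and 0.165 without that array). RPC34, the remaining gene of that subcomplex, had the lowest mean of polymerase III and lay between -1.27 and -0.73 with no trend that passed (limma adjusted p = 0.545). RPC53 and RPC37, the TFIIF-like pair of polymerase III, lay between -0.23 and 0.32 and between -0.85 and -0.01. RPC11, the cleavage subunit, was at -0.86 at 1 h, 0.15 at 5 h and -0.77 on the last array, and changed by the spline (limma adjusted p = 0.00401). In all 2 of the 8 rose, 1 fell and 4 changed by the spline, against 18%, 15.1% and 61% of all genes.

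Subunits shared between the enzymes were low as well. Of their 49 values 47 were below 0 and 20 at least 2-fold lower, against 48.5% and 15.9% of all values. RPO26, present in all 3 nuclear polymerases, was at least 2-fold lower on all 7 arrays and fell from -1.02 at 1 h to -2.07 on the last array. Its slope was -0.15 ± 0.04 per h (limma adjusted p = 0.0119), a call kept under 12 of 15 alternatives. It was lost with arrays brought to 1 spread or quantile normalized, and for 5, 6 and 8 h against 1, 2 and 3 h. RPC40, shared by polymerases I and III, was between -1.63 and -0.82 up to 6 h and at 1.05 on the last array, and rose along the line (slope 0.30 ± 0.08 per h, limma adjusted p = 0.0197). That call, too, rests on the last array, since without it the slope was 0.11 (limma adjusted p = 0.238). Its assembly partner RPC19 stayed between -0.79 and -0.33 and missed the threshold (limma adjusted p = 0.694). RPB5 lay between -1.99 and -0.98, RPB8 between -1.22 and -0.29, RPB10 between -0.88 and 0.12 and RPC10 between -1.02 and -0.05. Of the 7, 1 rose, 1 fell and 5 changed by the spline, against 18%, 15.1% and 61% of all genes.

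Subunits at the same place in the 3 enzymes differed more in some pairs than in others. At the place of the largest subunit, the difference of RPA190 from RPO31 was 0.62 at 1 h and -0.46 at 5 h. RPO21, the polymerase II counterpart, lay between -1.06 and -0.30, and RPO31 minus RPO21 between -0.21 and 0.46. At the place of the second largest, the difference of RPA135 from RPB2 of polymerase II was between -2.26 and -1.21, below 0 on all 7 arrays. The difference of RPA135 from RET1 was below 0 on 6 arrays, with -2.67 as its lowest value, and was 0.92 on the last. At the place of the cleavage subunit, RPA12 minus RPC11 was between -1.22 and -0.86 on the 4 arrays that hold both, and RPA12 minus RPB9 between -0.28 and 0.60. At the larger stalk place, RPA43 was below RPB7 on 5 of 6 arrays. These differences compare ratios to 0 h, not amounts of mRNA, and were not tested.

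**Figure D3:**
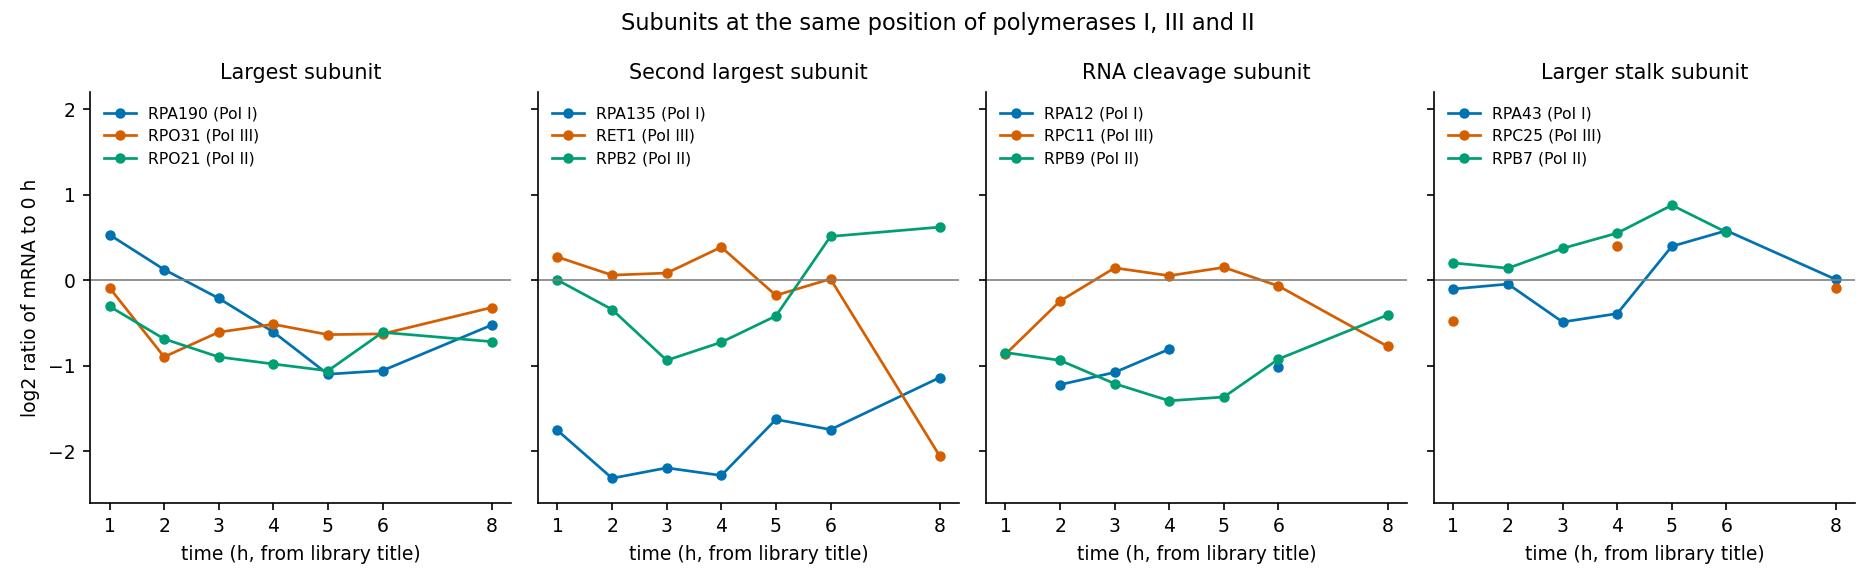
Log2 ratio to 0 h (vertical axis) against time in hours from the library title (horizontal axis) for subunits at the same place in polymerases I, III and II, 1 point per array, with lines broken at missing values. In the panel of the second largest subunit RPA135 lies between -2.31 and -1.14, while RET1 stays within 0.39 of 0 up to 6 h and stands at -2.05 on the last array.

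The factors that bring polymerase I to its genes were not low as its subunits were. The median of the 9 polymerase I factors, RRN3 among them, was between -0.34 and 0.26. HMO1, a high-mobility-group protein of ribosomal DNA chromatin, had the lowest mean, with values between -1.66 and -0.94. RRN9 of the upstream activating factor lay between 0.38 and 0.82, and RRN11 of the core factor between 1.52 and 2.79 on the 5 arrays with a value. RRN6, also of the core factor, changed by the spline (limma adjusted p = 0.00381, and 0.440 without the last array), with its lowest value of -0.56 on that array. RRN3 was the only 1 of 8 tested that passed along the line, and 3 of the 8 changed by the spline. Among all genes 18% rose and 15.1% fell along the line and 61% changed by the spline.

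The polymerase III factors stood above 0 h, with a median between 0.36 and 0.78, and 11 of their 66 values were below 0, against 48.5% of all values. TFC1, of the factor TFIIIC that reads the internal promoters of transfer RNA genes, rose from 0.21 at 1 h to 1.75 on the last array (slope 0.24 ± 0.05 per h, limma adjusted p = 0.00860, and 0.0868 without that array). SPT15, the TATA-binding protein used by all 3 polymerases, rose as well (slope 0.14 ± 0.04 per h, limma adjusted p = 0.0297), a call kept under 8 of 15 alternatives. TFC4, another TFIIIC subunit, fell from 1.11 to -0.18 (slope -0.20 ± 0.05 per h, limma adjusted p = 0.0207, and 0.0518 without the last array). BRF1, of the initiation factor TFIIIB, was at -0.35 at 1 h, 0.82 at 4 h and -0.66 on the last array and changed by the spline under every alternative tried (limma adjusted p = 0.00509). BDP1 of the same factor was above 0 on all 7 arrays, between 0.37 and 1.51. PZF1, which codes for TFIIIA, lay between 0.49 and 1.25 and TFC8 of TFIIIC between -0.62 and 0.72. Of 8 tested 2 rose, 1 fell and 5 changed by the spline, against 18%, 15.1% and 61% of all genes.

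Among 17 regulators of ribosome production, 15 were tested, 2 rose, 1 fell and 5 changed by the spline. The shares of all genes were 18%, 15.1% and 61%. DOT6, a repressor that binds the promoter motif named for polymerase A and C genes, rose from -0.98 at 1 h to 0.79 on the last array (slope 0.30 ± 0.05 per h, limma adjusted p = 0.00197), and did so under all 15 alternatives. FHL1, a factor of ribosomal protein gene promoters, rose to 3.02 there (slope 0.41 ± 0.08 per h, limma adjusted p = 0.00529, and 0.0606 without that array). CKA2, a catalytic subunit of casein kinase, fell from -0.08 to -2.30 (slope -0.31 ± 0.06 per h, limma adjusted p = 0.00636, and 0.0564 without the last array). The other catalytic subunit CKA1 lay between -1.33 and -0.50 and the regulatory subunit CKB1 between -1.27 and -0.53, while the other regulatory subunit CKB2 was above 0 on all 7 arrays, between 0.75 and 1.56. The highest means were those of STB3, a repressor of ribosome biogenesis genes, with values between 0.81 and 1.49, and of the kinase KNS1, between 0.71 and 1.74. MAF1, the repressor of polymerase III, was at 0.91 at 1 h and -0.57 at 6 h; it has no value on the last array and was not tested. The kinase TOR1 was below 0 on all 7 arrays, between -0.98 and -0.20, and its close relative TOR2 above 0 on all 7, between 0.20 and 0.97.

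Beside other genes of ribosome production, the medians of the polymerase I subunits overlapped in range with those of the small subunit processome and lay above those of the ribosomal proteins. The median of the 7 polymerase I subunits was between -1.22 and -0.48, that of the processome genes, which process the ribosomal RNA precursor, between -1.19 and -0.65, and that of the cytosolic ribosomal proteins between -2.96 and -2.07. The share of values at least 2-fold lower was 52.2% for the polymerase I subunits, 47.5% for the processome and 95.9% for the ribosomal proteins. It was 16.7% for the polymerase II subunits, 6.78% for the polymerase III subunits and 15.9% of all values. Of the 24 low polymerase I values, RPA135 and RPA34 gave 7 each and RPA14 gave 5, while RPA49 and RPA43 gave none. The values of a gene share 1 measurement at 0 h. The polymerase II median lay between -0.89 and -0.23. At 4 h it was -0.89, against -0.80 for polymerase I. Below 0 were 66.7% of the polymerase II values, 89.1% of the polymerase I values and 48.5% of all values. Within the processome NOP56, a box C/D snoRNA protein, lay between -2.63 and -1.66 and IMP3 between -2.33 and -1.58, while RRP9 lay between -0.30 and 0.62 and UTP20 between 0.04 and 0.99. Among the ribosomal proteins measured on all arrays the lowest means were those of RPL2A, between -4.62 and -2.90, and RPS3, between -4.42 and -2.80. The highest of them were those of RPS28A, between -1.09 and 0.27, and RPL43B, between -0.93 and 1.76. Along the line none of the 6 tested polymerase I subunits passed, 7 of 33 processome genes rose and 1 fell, and 21 of 120 ribosomal protein genes fell and none rose. By the spline 2, 15 and 65 of them changed. Among all genes 18% rose and 15.1% fell along the line and 61% changed by the spline. The directions of the ribosomal protein genes depended on the scaling: 42 rose and 2 fell with arrays brought to 1 spread, 14 rose and 5 fell when quantile normalized, and 5 rose and 8 fell without the 1 h array. At 1 spread 13 processome genes and 2 polymerase I subunits, RPA135 and RPA34, rose and none of either list fell. Of all 5349 genes tested, 899 rose and 606 fell at 1 spread, and 721 rose and 737 fell when quantile normalized. Without the 1 h array 1134 of 5439 genes rose and 982 fell. The shares and counts of the lists describe lists of unequal size and were not tested against each other.

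**Figure D4:**
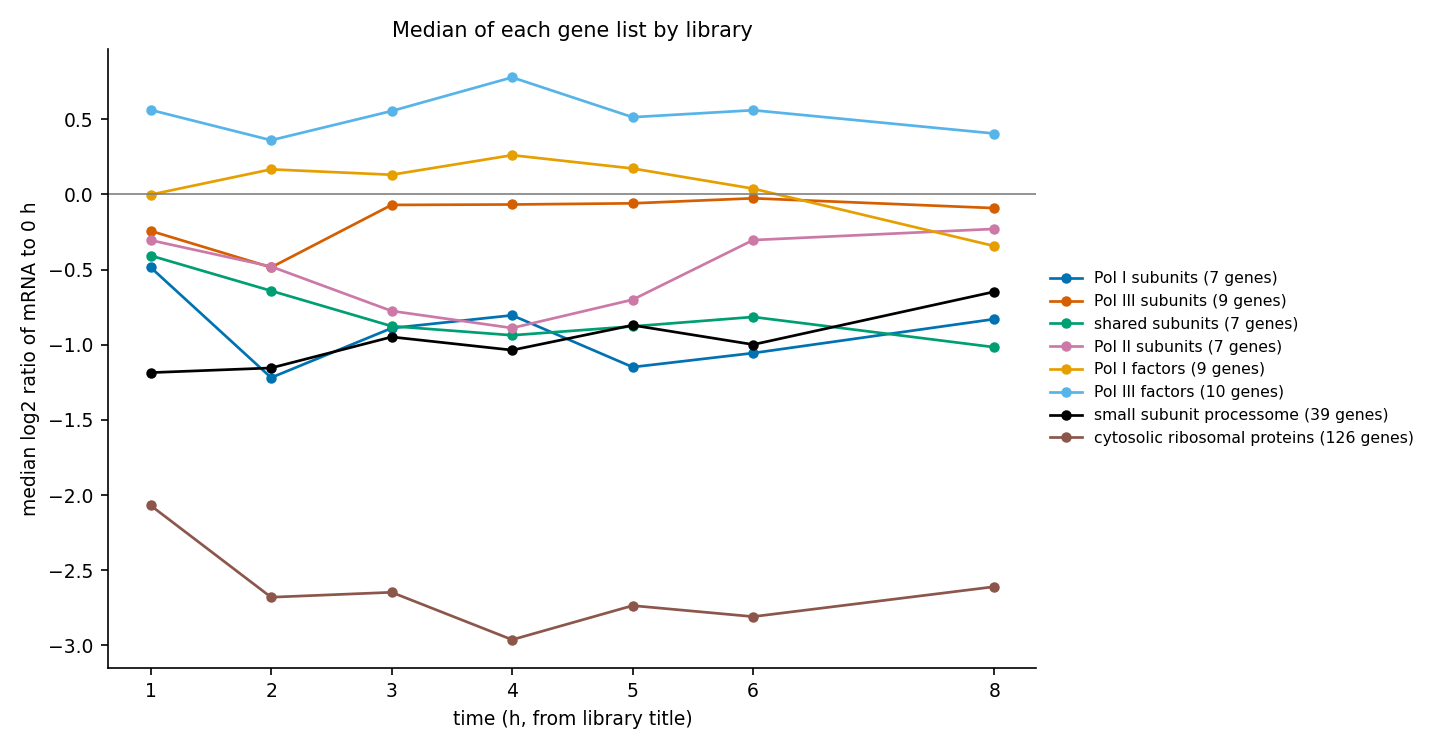
Median log2 ratio to 0 h (vertical axis) of 8 gene lists, the regulators left out, against time in hours from the library title (horizontal axis), with the number of genes that have a value in the legend and no error bars. Ribosomal proteins lie lowest, between -2.96 and -2.07, the polymerase I subunits lie between -1.22 and -0.48, and the polymerase III factors are the highest of these 8 on all 7 arrays.

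RPA190 and RPA43 are neighbours transcribed away from each other, so that the start regions of both lie in the same intergenic stretch. Their ratios had opposite signs on 5 of the 7 arrays. The difference of RPA190 from RPA43 was above 0 at 1, 2 and 3 h, with 0.63 at 1 h, and below 0 on the other arrays, with -1.64 at 6 h. The root mean square difference between them was 0.91 log2 units over the 7 arrays. On the far side of RPA43 lies UBC11, a ubiquitin-conjugating enzyme gene on the same strand, which stood at 1.49 at 1 h and 6.91 on the last array, where RPA43 was at 0.01. On the far side of RPA190 the convergent gene YOR342C lay between -1.61 and -0.76.

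**Figure D5:**
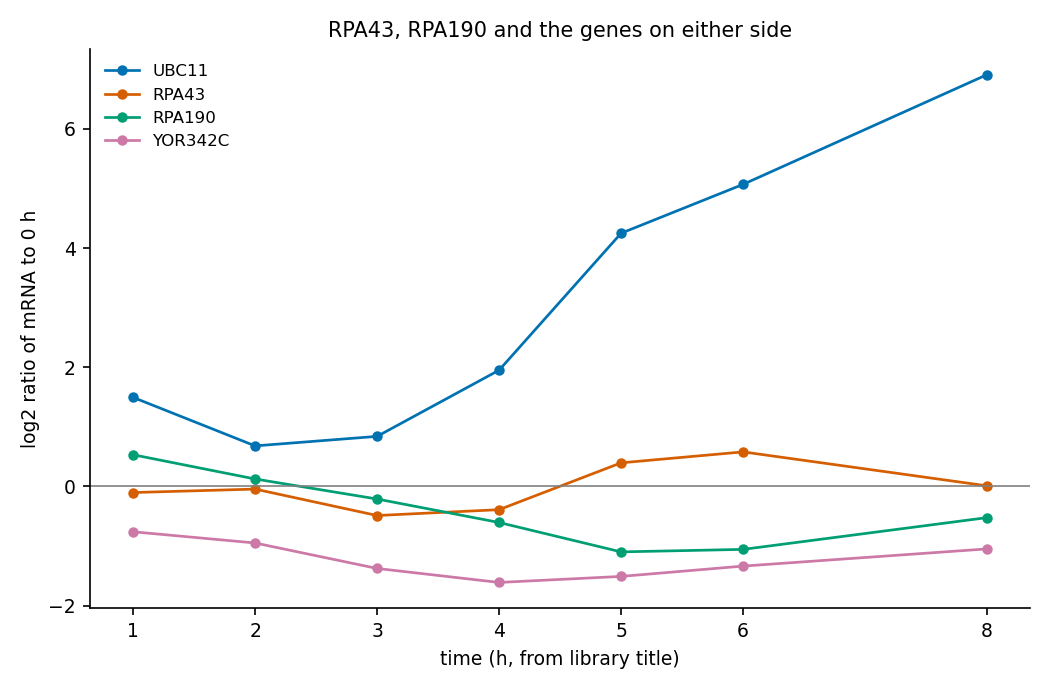
Log2 ratio to 0 h (vertical axis) against time in hours from the library title (horizontal axis) for the divergent pair RPA43 and RPA190 and the next gene on either side, UBC11 and YOR342C, 1 point per array. UBC11 reaches 6.91 while RPA43 stays between -0.49 and 0.58, and RPA190 crosses below RPA43 between 3 h and 4 h.

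Over all 19 pairs of a member and an adjacent gene, the root mean square difference was between 0.345 and 3.64 log2 units, with a median of 1.37. It was smallest for RPA12 and NTA1, divergent genes that were both below 0 on the 4 arrays that hold both, and was 0.58 for RPC82 and SKI3. The pairs named next were chosen after their values were seen. RPA34 was at least 2-fold lower throughout while DAS1, an F-box protein gene before it on the same strand, lay between 1.50 and 2.63. RET1 lies divergent from the phosphatase gene PTP2, which was at 0.34 on the last array where RET1 was at -2.05. RPC82 lies divergent from QCR2, a gene of the respiratory chain, which was at -0.99 at 1 h and -3.20 on the last array. RPO31 lies divergent from RPT5, a proteasome base gene, which was at 2.25 at 4 h.

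The genes most like each member were ranked by the root mean square difference of the log2 ratio over its arrays, out of 5340 genes that are no members. For RPA135 these were RPS30B (0.19), the mitochondrial chaperone gene SSC1 (0.21) and RPS14B (0.22), so 2 of the 3 were ribosomal protein genes. For RPA49 they were NOP9 (0.12), a nucleolar protein of small subunit assembly, YLR171W (0.13) and PKC1 (0.13), the kinase of cell wall integrity. For RPA34 they were MHR1 (0.13), YGR219W (0.14) and SAS10 (0.14), a processome gene. RPA190 was nearest to BPT1 (0.09), a vacuolar transporter gene, IGD1 (0.15) and STP22 (0.19). RPA43 was nearest to MOB1 (0.16), RSM26 (0.17) and YMR320W (0.18). RRN3 was nearest to ANP1, PHO85 and YJL021C, at 0.10 to 0.11. RPO31 was nearest to PKC1 (0.09), GCN20 (0.14) and LST7 (0.14), RET1 to BCH1 (0.21), GON7 (0.24) and GCG1 (0.27), and RPC82 to MATALPHA2 (0.14), SED5 (0.17) and SPT7 (0.18). RPA12, over 4 arrays, was nearest to MRPL40 (0.06), NCL1 (0.09) and GRX4 (0.10). Among the members themselves the closest pair was RPA49 and RPO31, at 0.15, and the farthest RPA135 and RPC82, at 2.04.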

How the data were processed

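The deposited values are log2 ratios: per the labels, the authors took the ratio of sample (Cy5) to pooled reference (Cy3) on each array, scaled it to that of 0 h and took the logarithm. How spots were background-corrected, filtered and normalized is not given in the sources used here. Gene names and neighbours came from the RefSeq table of assembly R64, which matched 5655 of 6141 open reading frames. Trends used lmFit and eBayes of limma 3.58.1 (R 4.3.3) on the 5349 genes with a value on all 7 arrays, as a slope per hour with 5 residual degrees of freedom and as a natural spline with 2 degrees of freedom (F test), Benjamini-Hochberg adjusted over all genes at 0.05. "Rose" and "fell" refer to the line, "changed" to the spline. The fits were tested on simulated data. Tables and plots used Python 3.11.15, numpy 2.4.6, pandas 2.3.3 and matplotlib 3.10.9. The members and the 9 gene lists were chosen with earlier results of these data known. All members and other subunits of both enzymes were named, and of polymerase II the 2 largest subunits. From the further lists the 2 lowest and 2 highest means were named, ranked among genes with a value on all 7 arrays. Per member the 3 most similar genes were named. RPB7, RPB9, RRN11, TFC1, SPT15, TFC4, DOT6, FHL1, CKB2, CKA2, MAF1, TOR1, TOR2 and the neighbours were named after their values were seen. Each array was placed at the hour its title gives, and the alternatives were other scalings, the last array set to 6 h, other forms of the fit and leaving out each array. Promoter and protein sequences were not used here, so the planned promoter motif search was not run.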

Additional observations from a re-analysis of the deposited data

How the results depend on the processing

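No paired analysis was possible because each time point holds 1 array. Along the line 1 member rose and 2 fell as reported. These counts were 1 and 1 with arrays centred, 3 and 1 with arrays brought to 1 spread, 2 and 1 when quantile normalized, 0 and 1 with the last array set to 6 h, 1 and 1 with the rank of the time points and 0 and 1 for 5, 6 and 8 h against 1, 2 and 3 h. Leaving out each array gave 0 to 2 that rose and 0 to 2 that fell. Over all genes 965 rose and 806 fell; late against early arrays gave 623 and 439, and leaving out an array gave 710 to 1134 and 512 to 982, with the lowest counts without that of 2 h. By the spline 5 members and 3262 genes changed; 2 members did with the last array set to 6 h, and 2 to 5 when an array was left out, the fewest without the last. The 20 member values at least 2-fold lower became 31 at 1.5-fold and, against the 1 h array as baseline, 5 of 54. Without the last array, an alternative chosen after seeing the data, they were 17 of 58. No share of all genes is given here for these alternatives, so these counts do not set the members apart from other genes. Slopes that changed sign never passed the test. RPA49 had 0.010 at 1 spread and 0.0067 when quantile normalized, and -0.106 to 0.0168 when an array was left out. RPA34 had -0.0261 to 0.0639 and RPO31 -0.0521 to 0.0700 when an array was left out, and RPO31 had -0.0172 with the last array set to 6 h and -0.0066 by rank. RPA135 passed the line at 1 spread (0.27 per h, limma adjusted p = 0.00778), when quantile normalized (0.21, 0.0166) and without the 1 h array (0.20, 0.0108). Over the 15 alternatives of the line and 14 of the spline, 208 member results kept their side of the threshold, and for the line also the direction. A further 32 lost the call, 12 gained it and 9 slopes of the line changed sign. Direction was not compared for the spline in these counts. Of the 9 other pathway genes called along the line and 22 by the spline, 3 and 12 passed without the last array. Spot intensities were not used here, so signal over background is unknown.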
